A study of Rattus norvegicus with 12 samples.

Results

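The left ventricle of rats that had an infarct and then ran on a treadmill for 8 weeks (HFE) was compared with that of sham-operated rats (Sham), gene by gene. The members were all genes of the deposited count table in 3 HFE and 3 Sham rats, 6 of the 12 rats in the series. The comparison measures what differed from sham after the running, and no heart was sampled before it. All rats were male Sprague-Dawley rats, an outbred strain, operated on when 8 weeks old. In HFE rats the left anterior descending coronary artery was tied, which starves the front wall of the left ventricle of blood. After 4 weeks the infarcted rats were divided by ejection fraction, and HFE rats then ran 60 min a day on 5 days a week at 50 to 60% of their maximum. In Sham rats a suture was passed around the artery without tying it, and they did not run. Hearts were taken 12 weeks after surgery. The other groups, used only for side-by-side values, were infarcted rats that stayed sedentary (HF) and infarcted rats given β-aminoisobutyric acid (BAIBA), with 3 rats each. HFE and Sham differ by both the infarct and the running, so this comparison alone cannot tell the 2 apart. HF rats, which had the infarct without the running, are given beside it. No exercised sham library was analysed here, so running without an infarct was not seen. The methods place the sampled tissue in the front of the left ventricle wall and name the infarct border only for BAIBA-treated rats, so how much scar each piece held is not known.

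Heart muscle makes force with 2 myosin heavy chains, the fast α isoform (Myh6) and the slower, more economical β isoform (Myh7). Adult rat ventricle runs mostly on α, and load or infarction shifts it towards β together with other genes of the fetal programme, such as those of the natriuretic peptides. The surviving muscle around an infarct also meets scar matrix laid down by fibroblasts, macrophages that clear debris, and capillaries that must keep pace with the muscle.

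Libraries of the 6 rats held 14812541 to 17465736 counts, with 19457 to 19754 genes detected and scaling factors of 0.955 to 1.02. Log expression correlated at 0.967 to 0.979 between rats of 1 group and at 0.961 to 0.972 between groups. On the first principal component of the 500 most variable genes, which held 34.5% of the variance, Sham rats 1, 2 and 3 scored -18.6, -21.7 and -3.02 and HFE rats 1, 2 and 3 scored 3.04, 28.9 and 11.4. The labels name the tissue as heart, and heart muscle markers were abundant. The summed cardiomyocyte markers were 49505 to 50862 CPM (counts scaled to library size) in Sham and 42637 to 49017 in HFE rats. Of the 9 markers, 5 were higher and 1 (Myh6) lower at an unadjusted p under 0.05. Skeletal muscle markers summed to 8.67 to 11.5 CPM over the 6 rats. The left ventricle as the site comes from the methods and was not tested by these markers. Atrial markers varied within both groups, from 30.6 to 441 CPM in Sham and from 28.7 to 195 in HFE rats.

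Of 14804 genes tested, 13548 of them with a symbol, none reached an adjusted p under 0.05 by edgeR's quasi-likelihood test, with or without a fold limit, and the lowest adjusted p was 0.0839. At an unadjusted p under 0.05 there were 1656 genes (11.2% of those tested), of which 894 (6.04%) were higher and 762 (5.15%) lower in HFE. All 3 HFE rats lay above all 3 Sham rats for 1406 genes (9.50%) and below them for 1220 (8.24%). DESeq2, run on the same genes, called 31 genes higher (0.210%) and 37 lower (0.250%) at an adjusted p under 0.05 and more than a 2-fold change, and 87 higher (0.588%) and 80 lower (0.541%) with no fold limit. The sedentary infarcted rats gave 370 higher (2.47%) and 528 lower genes (3.53%) at an unadjusted p under 0.05 against the same Sham rats and 0 by adjusted p in edgeR, where the lowest was 0.626, with 9 higher (0.0604%) and 15 lower (0.101%) in DESeq2. Against HF rats, HFE rats had 648 higher (4.34%) and 491 lower genes (3.29%) at an unadjusted p under 0.05 and 0 by adjusted p in edgeR, where the lowest was 0.148, with 11 higher (0.0769%) and 9 lower (0.0630%) in DESeq2. Because these comparisons share rats, their values are given side by side only. All p-values measure the spread between these rats.

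The balance of the myosin isoforms lay far from that of sham. Myh7, the β chain, was at 1247, 1331 and 1379 FPKM (fragments scaled to transcript length and library size) in Sham rats and at 2384, 2674 and 2076 in HFE rats. Myh6, the α chain, was at 3227, 3215 and 2958 FPKM in Sham and at 1535, 1770 and 2113 in HFE rats. Every HFE rat lay outside the Sham range for both genes. The log2 fold change of Myh7 was 0.91 (SE 0.10, edgeR adjusted p = 0.0839), and that of Myh6 was -0.73 (SE 0.13, edgeR adjusted p = 0.142); DESeq2 gave adjusted p-values of 1.91e-11 and 9.60e-05. The β share of the summed α and β FPKM was 27.9, 29.3 and 31.8% in Sham rats and 60.8, 60.2 and 49.6% in HFE rats, a mean of 29.6% ± 1.99 against 56.9% ± 6.32 (SD, n = 3 each; exact permutation test, 2-sided p = 0.1, the smallest that 3 against 3 allows). Sedentary infarcted rats had 51.6, 38.6 and 60.9%, which overlapped the HFE rats (exact permutation p = 0.7 for HFE against HF), so no difference in the share between running and sedentary infarcted rats was detectable. The 2 chains are near-identical paralogs, and reads that match both may have been assigned to either.

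**Figure D1:**
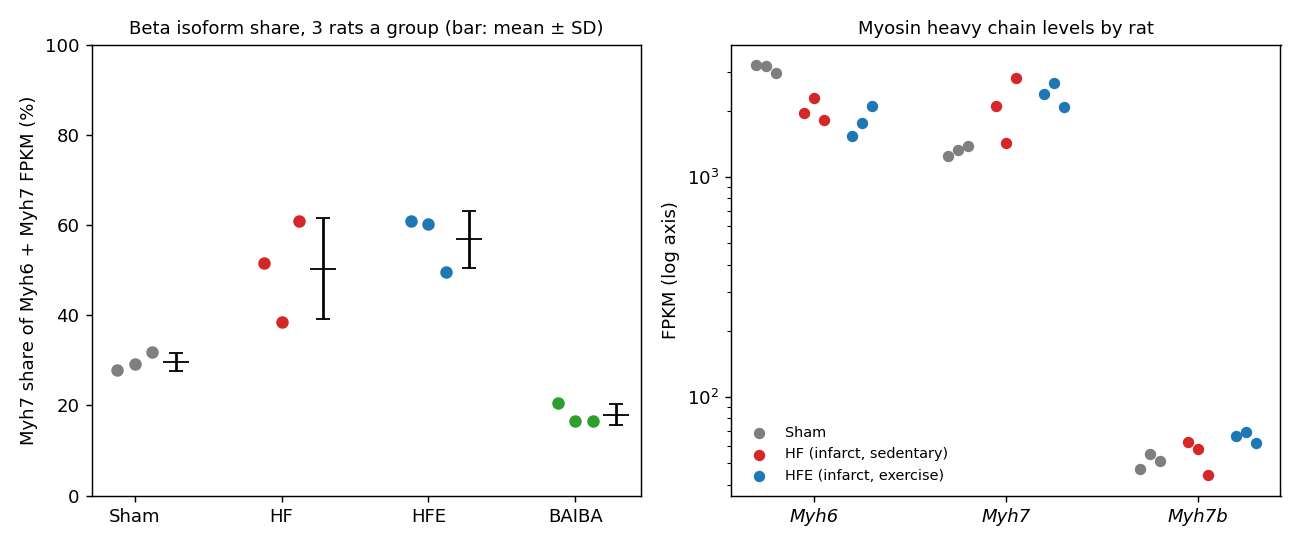
Left, the Myh7 share of summed Myh6 and Myh7 FPKM (%) in each of 12 rats, with the mean ± SD of 3 rats beside each group; right, the FPKM of Myh6, Myh7 and Myh7b in each Sham, HF and HFE rat on a log axis. The 3 HFE rats sit at 49.6 to 60.8%, all above the Sham rats at 27.9 to 31.8%, and lie among the HF rats.

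Each of these myosin genes carries a microRNA. In RefSeq (build GRCr8) the hairpin of miR-208b lies within Myh7 on chromosome 15, that of miR-208a within Myh6 on chromosome 15, and that of miR-499 within Myh7b, a slow-type myosin gene on chromosome 3. The mature sequences are given with the seed (bases 2 to 8 from the 5′ end) in capitals:
rno-miR-208b-3p: aUAAGACGaacaaaaggu
rno-miR-208a-3p: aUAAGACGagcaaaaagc
rno-miR-499-5p: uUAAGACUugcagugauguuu
The 2 miR-208 strands share their seed, and that of miR-499 differs from it only at base 8. Shared targets were not tested. Of the hosts, Myh7b, chosen after its values were seen, was at 47.1, 55.1 and 51.2 FPKM in Sham and 66.3, 69.3 and 61.8 in HFE rats, again with no overlap (log2 fold change 0.42, SE 0.08, edgeR adjusted p = 0.142, DESeq2 adjusted p = 0.00437). The libraries were made from polyadenylated RNA, which does not capture mature microRNAs, so the Mir208b entry counts longer transcripts over its locus. That entry ran the other way from its host: 51, 90 and 84 reads in Sham rats against 31, 35 and 47 in HFE rats (2.94, 5.83 and 5.52 against 2.06, 2.42 and 2.98 CPM), a log2 fold change of -0.92 (SE 0.30, edgeR adjusted p = 0.352, DESeq2 adjusted p = 0.288). HFE rat 3 overlapped Sham rat 1, and because the locus lies inside Myh7 and the strand setting of the counting is not given, reads of the 2 cannot be told apart. Of the 8 names in the list of myosin microRNAs and cardiac microRNA hosts, 4 were found among the deposited genes. Of these, Mir208b alone passed the filter on low counts. Myh6, Myh7 and Myh7b, tested above, are not among them.

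Of 26 tested members of the sarcomere and fetal isoform list, the myosins above included, 8 were higher and 1 (Myh6) lower at an unadjusted p under 0.05. These were 30.8% and 3.85%, against 6.04% and 5.15% of all genes tested. Besides Myh7 and Myh7b the higher ones were Actc1, Tnnt2, Tnni3, Tnnc1, Myl2 and Myl3, which encode actin, troponin subunits and myosin light chains. In all, 19 members had positive and 7 negative log2 fold changes, and the list's median log2 fold change was 0.12 against 0.0055 for all genes tested. Cardiac actin Actc1 was at 6437, 6524 and 7526 CPM in Sham and 8100, 8657 and 8439 in HFE rats, a log2 fold change of 0.30 (SE 0.08, edgeR adjusted p = 0.294). Skeletal actin Acta1, a fetal marker, overlapped between the groups (log2 fold change 0.05, SE 0.31). Left out in turn, single rats brought the higher members to 4 (without HFE rat 2) at the lowest and 10 (without Sham rat 3) at the highest.

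In the calcium handling list, 4 of 25 tested genes were higher and 1 lower at an unadjusted p under 0.05, or 16% and 4% against 6.04% and 5.15% of all genes tested, with a median log2 fold change of 0.03. With a rat left out, 2 (without HFE rat 1) to 6 (without Sham rat 3) were higher and 1 to 4 (without Sham rat 2) lower, and library-size scaling, limma and the fit of all 12 rats gave 1 higher. The lower gene was Atp2a2, the pump that returns calcium to the sarcoplasmic reticulum, at 9306, 9496 and 9498 CPM in Sham and 7372, 8118 and 8218 in HFE rats (log2 fold change -0.25, SE 0.07, edgeR adjusted p = 0.296). Asph, whose locus also encodes the reticulum protein junctin, was higher without overlap, with a log2 fold change of 0.42 (SE 0.09, edgeR adjusted p = 0.205) against -0.06 in HF rats. In the ion channel and gap junction list, 2 of 31 were higher and 3 lower, or 6.45% and 9.68%. Kcnj12, an inward rectifier potassium channel, was at 11.08, 11.02 and 11.23 CPM in Sham and 12.8, 14.1 and 14.6 in HFE rats.

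Of 9 tested natriuretic peptide genes, 2 were higher and 3 lower at an unadjusted p under 0.05. These were 22.2% and 33.3%, against 6.04% and 5.15% of all genes tested. The clearance receptor Npr3, which removes the peptides, was at 13.2, 16.7 and 17.3 CPM in Sham rats and 6.26, 4.64 and 2.09 in HFE rats. No HFE rat reached the Sham range (log2 fold change -1.86, SE 0.36, edgeR adjusted p = 0.198, DESeq2 adjusted p = 2.64e-05), and HF rats lay between, at 8.14, 8.83 and 10.3 CPM. Npr1, the receptor that signals through cyclic GMP, was at 35.02, 41.1 and 40.3 CPM in Sham and 44.7, 52.0 and 61.5 in HFE rats, a log2 fold change of 0.45 (SE 0.12, edgeR adjusted p = 0.298). Among members chosen after their values were seen, the B-type peptide gene Nppb had 132, 46.4 and 110 CPM in Sham and 195, 202 and 340 in HFE rats (log2 fold change 1.35, SE 0.47), and Corin, the protease that activates the A-type peptide, had a log2 fold change of -1.43 (SE 0.36) without overlap. Nppa itself ranged from 16.9 to 375 CPM among Sham rats and from 27.5 to 148 among HFE rats, and atrial markers varied beside it.

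The 10 genes of each direction with a symbol, more than a 2-fold change, no overlap between rats and the lowest p were picked by rule, so their direction and separation are a description. Among the higher ones were Adcyap1r1, the PACAP receptor, G0s2, an inhibitor of the fat-splitting lipase ATGL, Bcl6b, a transcription factor of endothelium, Unc5c, a netrin receptor, Slc14a1, a urea transporter, Lrrtm3, a synaptic adhesion protein, and Fam205a. Adcyap1r1 was at 6.29, 8.04 and 6.24 CPM in Sham and 16.04, 14.7 and 12.4 in HFE rats, with all HFE rats above the 9 other rats of the series, whose highest was 10.4 (log2 fold change 1.07, SE 0.16, edgeR adjusted p = 0.121). G0s2 was at 10.3, 10.6 and 16.02 CPM in Sham and 28.03, 27.1 and 23.8 in HFE rats, and 1 HF rat reached 31.2 (log2 fold change 1.10, SE 0.18, edgeR adjusted p = 0.129).

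The other 3 higher genes were annotated as copies of other genes: LOC100909750 (ABL1-like), LOC100911994 (Ccdc132-like) and LOC102556337 (mitochondrial fission factor-like). LOC102556337 was at 3.63, 2.40 and 2.17 CPM in Sham and 29.0, 15.2 and 13.7 in HFE rats. In HF rats it was at 1.43, 3.25 and 27.6, and in BAIBA rats at 38.1, 2.31 and 3.56, so single rats of every infarcted group were as high. LOC100909750 also varied within the HF (0.287, 3.62 and 6.62 CPM) and BAIBA groups, and how reads were divided between such loci and the genes they resemble is uncertain.

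Among the lower genes were matrix and inflammatory genes. The matrix glycoprotein Fn1 (fibronectin) was at 47.4, 76.7 and 58.0 CPM in Sham and 31.2, 26.9 and 25.2 in HFE rats (log2 fold change -1.12, SE 0.18, edgeR adjusted p = 0.129). Tnc (tenascin C), a matrix protein of tissue repair, was at 1.90, 4.60 and 1.97 CPM in Sham and 0.466, 0.415 and 0.317 in HFE rats. HF rats, at 1.89, 1.66 and 1.32 CPM, also lay above every HFE rat for Tnc. Hmox1, the stress-induced enzyme that breaks down heme, was at 13.6, 16.01 and 17.8 CPM in Sham and 6.79, 5.54 and 8.48 in HFE rats (log2 fold change -1.18, SE 0.18, edgeR adjusted p = 0.121). The others were Pla2g2d, a secreted phospholipase of immune cells, LOC103689965 (complement C4-like), Phkg1, the catalytic subunit of phosphorylase kinase, Dcdc5, Klhl33, the chemokine Ccl1 and the mesothelial gene Msln. Ccl1 had 53 reads in the 3 Sham libraries and 3 in the 3 HFE libraries, a ratio of 16.7 (exact 95% interval 5.40 to 83.4, counting error only). Msln had 64 reads against 1, a ratio of 60.4 (10.5 to 2421), and it ranged from 0 to 5.33 CPM among HF rats.

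Ddah1, which breaks down an inhibitor of nitric oxide synthesis, had the lowest unadjusted p of the genes with a symbol but less than a 2-fold change, and was chosen after its values were seen: 56.2, 57.8 and 53.4 CPM in Sham and 30.4, 26.4 and 33.1 in HFE rats (log2 fold change -0.89, SE 0.10, edgeR adjusted p = 0.0839), with the same log2 fold change of -0.89 in HF rats against Sham. Of the 20 genes picked by rule, DESeq2 called 19 (not Slc14a1), while edgeR with all 12 rats fitted together called 0. DESeq2 read the same counts from which these genes were picked for a low p and over a 2-fold change. Its calls are therefore no independent support. With all genes of at least 1 count kept, edgeR called 11 higher and 14 lower genes, for example LOC100909750 (adjusted p = 0.00153) and Hmox1 (adjusted p = 0.0105).

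**Figure D2:**
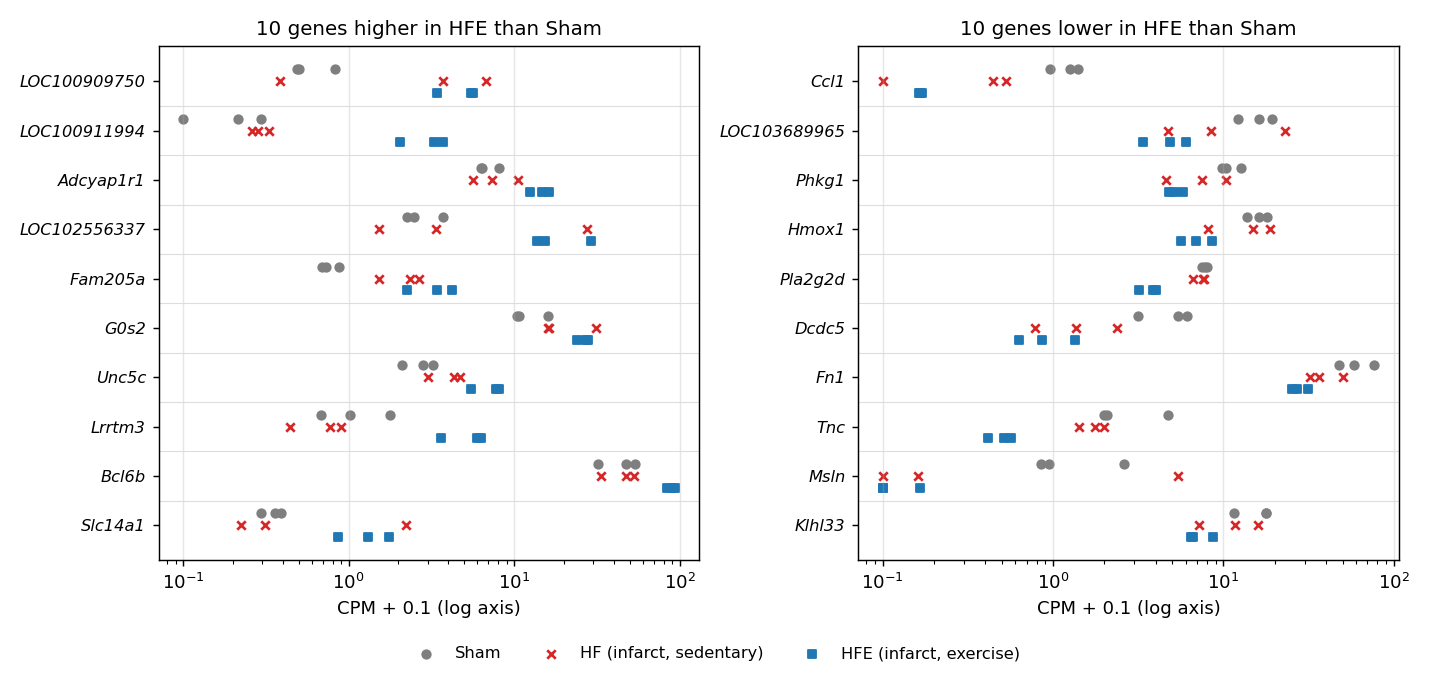
CPM + 0.1 on a log axis for the 10 higher and 10 lower genes in each Sham, HF and HFE rat, 3 rats a group. By the rule that chose the genes, HFE and Sham rats do not overlap; HF rats fall on both sides, as for LOC102556337 at 1.43 to 27.6 CPM.

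Of 51 tested members of the matrix list, 6 were higher and 9 lower at an unadjusted p under 0.05, or 11.8% and 17.6% against 6.04% and 5.15% of all genes tested, with a median log2 fold change of -0.06. Without overlap were 3 higher and 8 lower members, where all genes gave 9.50% and 8.24%. Besides Fn1 and Tnc, and chosen after their values were seen, fibrillar collagen Col3a1 was at 589, 630 and 531 CPM in Sham and 493, 424 and 378 in HFE rats (log2 fold change -0.43, SE 0.11), and Tgfb3, a growth factor of fibrosis, had a log2 fold change of -0.53 (SE 0.13). The basement membrane collagen Col4a1 was at 380, 393 and 348 CPM in Sham and at 430, 514 and 451 in HFE rats. Of the fibroblast markers, all 7 had negative log2 fold changes and 3 were lower at an unadjusted p under 0.05, with a median of -0.31, and their summed level was 991 to 1055 CPM in Sham and 753 to 1077 in HFE rats. The count of lower markers was 0 without Sham rat 1, 1 without HFE rat 2, 5 without HFE rat 1 and 1 with all 12 rats fitted together, and without HFE rat 3 there were 2 positive log2 fold changes. The fibroblast receptor Pdgfra was at 70.4, 64.8 and 69.5 CPM in Sham and 56.1, 46.0 and 30.9 in HFE rats. In bulk tissue, fewer cells of a type and less RNA per cell cannot be told apart. Without HFE rat 1 the lower matrix genes numbered 15 and without HFE rat 2 they numbered 5, and the list median lay between -0.18 and 0.05.

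The summed level of the macrophage markers was lower in every HFE rat than in any Sham rat, at 155 to 179 CPM in Sham and 88.7 to 122 in HFE rats. All 8 markers had a negative log2 fold change, 7 had an unadjusted p under 0.05 and 5 did not overlap, with a median of -0.67. Of all genes tested, 5.15% were lower at that p and 8.24% were lower without overlap. Cd68, Cd163 and Adgre1 overlapped between the groups. C1qc, a chain of the complement starter C1q made by tissue macrophages, was at 29.7, 26.6 and 27.8 CPM in Sham and 18.7, 15.4 and 18.8 in HFE rats. It had a log2 fold change of -0.66 (SE 0.11, edgeR adjusted p = 0.129), and the partner chain C1qb had one of -0.68 (SE 0.14, edgeR adjusted p = 0.198). The 3 HF rats had 24.0, 21.1 and 42.2 CPM of C1qc, and against Sham the macrophage list gave 0 genes at an unadjusted p under 0.05 in either direction and a median of -0.09. Against HF rats, 3 of the 8 were lower in HFE at that p, where 3.29% of all genes tested were. With each rat left out in turn, 4 (without Sham rat 1 or HFE rat 2) to 7 of the 8 were lower at an unadjusted p under 0.05 and the median lay between -0.72 and -0.58. With all 12 rats sharing 1 estimate of the spread, 0 of the 8 passed, with a median of -0.68.

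In the inflammation list, 1 of 27 tested genes was higher (Ccl21, a chemokine of lymphatic vessels, 12.6, 24.6 and 22.4 CPM in Sham and 69.6, 41.8 and 33.1 in HFE rats) and 2 were lower. These were 3.70% and 7.41%, against 6.04% and 5.15% of all genes tested. Vcam1, an adhesion molecule for leukocytes, was at 9.87, 14.98 and 7.42 CPM in Sham and 5.13, 5.54 and 5.32 in HFE rats (log2 fold change -1.005, SE 0.25, edgeR adjusted p = 0.268). Interferon and antigen processing genes all had negative log2 fold changes (26 of 26, median -0.65), yet 1, Irf1, passed an unadjusted p of 0.05 and none was without overlap. Sham rat 3 was low: its list mean lay 0.61 log2 units under the Sham mean, against 0.24 and 0.37 above it for Sham rats 1 and 2, and HFE rats lay 0.96, 0.27 and 1.18 below. Without Sham rat 3 the list had 9 lower genes, without HFE rat 2 it had 12, and without HFE rat 3 or Sham rat 2 it had 0. Against Sham, HF rats had 14 lower genes of the 26 and a median of -0.81, where 3.53% of all genes tested were lower. T cell (0 of 4), neutrophil (0 of 2) and mast cell (0 of 2) markers gave no gene at an unadjusted p under 0.05, and no B cell marker passed the filter.

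In the angiogenesis and endothelium list, 12 of 32 tested members were higher and 1 (Vwf) lower at an unadjusted p under 0.05. These were 37.5% and 3.1%, against 6.04% and 5.15% of all genes tested. Without overlap were 11 higher and 2 lower members, where all genes gave 9.50% and 8.24%. The list had 25 positive and 7 negative log2 fold changes and a median of 0.20. Against the same Sham rats, HF rats had 4 higher and 1 lower and a median of 0.10. In that comparison 2.47% of all genes tested were higher and 3.53% lower. The list mean of HF rat 2 lay 0.22 log2 units above the Sham mean. It exceeded those of HFE rats 1, 2 and 3, at 0.10, 0.18 and 0.19. The angiogenic growth factor Vegfa was at 867, 861 and 721 CPM in Sham and 1088, 1106 and 1192 in HFE rats, against 813, 838 and 773 in HF rats. Its log2 fold change was 0.47 (SE 0.09, edgeR adjusted p = 0.142, DESeq2 adjusted p = 0.00346) against Sham and 0.48 (SE 0.08, edgeR adjusted p = 0.584) against HF. Bcl6b was at 53.8, 47.1 and 32.0 CPM in Sham, 33.3, 52.9 and 47.6 in HF and 84.2, 89.6 and 93.6 in HFE rats. For Vegfa and Bcl6b every HFE rat lay above every Sham and HF rat. The lymphatic growth factor Vegfc, chosen after its values were seen, was at 5.54, 7.20 and 7.29 CPM in Sham and 10.7, 10.9 and 9.24 in HFE rats, and its receptor Flt4 at 17.0, 18.7 and 21.1 against 24.0, 27.2 and 30.8. Endothelial markers summed to 465 to 511 CPM in Sham and 544 to 645 in HFE rats (2 of 4 higher, Kdr and Tie1), and whether more endothelium or more RNA per cell lies behind the list cannot be told apart. Smooth muscle and pericyte markers gave 0 of 7 in either direction. With each rat left out, 9 to 17 genes of the vessel list were higher.

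**Figure D3:**
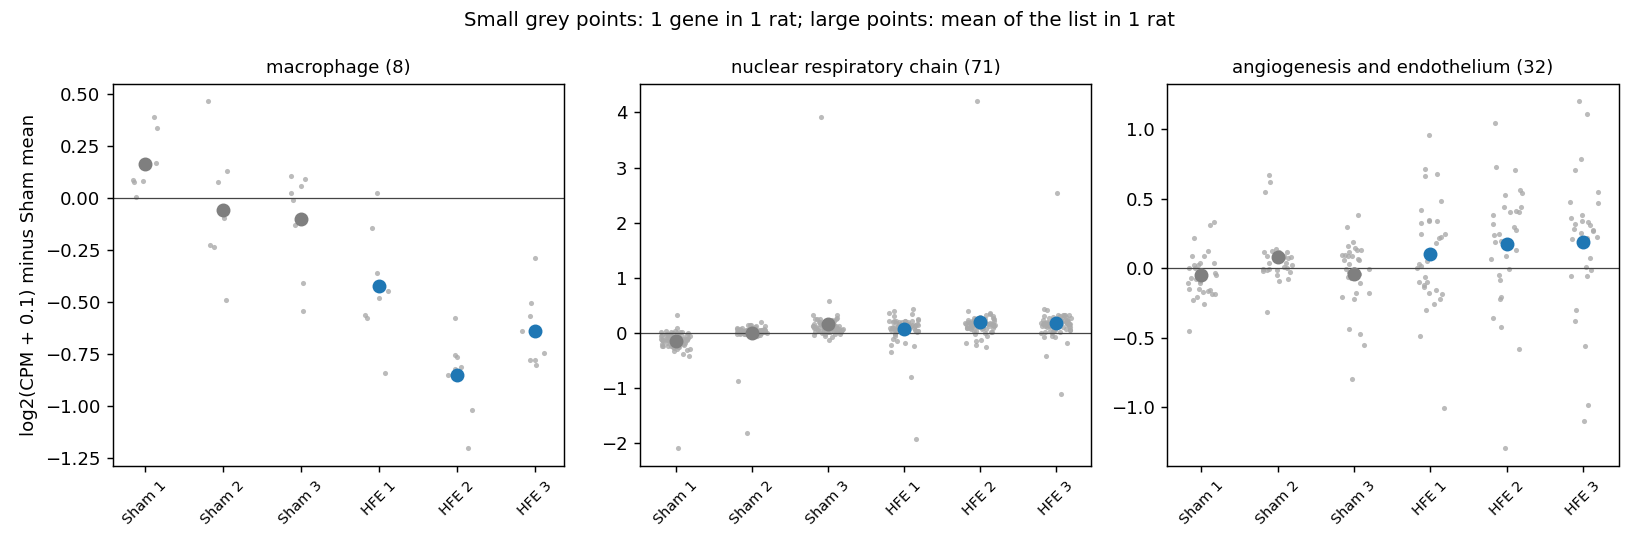
For 3 lists, the log2(CPM + 0.1) of each tested gene minus its mean over Sham rats (small points) and the mean of the list in each rat (large points). HFE rats lie below all Sham rats for the macrophage list and above them for the vessel list; for the respiratory chain list HFE rat 1 lies below Sham rat 3.

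Of 71 tested nuclear genes for subunits of the respiratory chain, 64 had a positive log2 fold change, 16 were higher and 2 lower at an unadjusted p under 0.05, 26 and 3 did not overlap, and the median was 0.15. The shares at that p were 22.5% and 2.82%, against 6.04% and 5.15% of all genes tested. All genes gave 9.50% higher and 8.24% lower without overlap. Ndufb7, a complex I subunit, was at 113, 136 and 149 CPM in Sham and 178, 168 and 175 in HFE rats (log2 fold change 0.39, SE 0.10, edgeR adjusted p = 0.292), and Atp5f1d, of the ATP synthase, at 266, 291 and 307 against 343, 340 and 358. The list mean placed Sham rats at -0.15, -0.01 and 0.16 and HFE rats at 0.06, 0.19 and 0.17 log2 units, so HFE rat 1 and Sham rat 3 overlapped, and Sham rat 1 had the lowest value for 57 of the 71 genes. With library-size scaling alone 3 genes were higher and 4 lower and the median was 0.09, and the count of higher genes ranged from 3 (without Sham rat 1 or HFE rat 2) to 36 (without Sham rat 3). In HF rats against Sham, 0 of these genes passed in either direction and the median was -0.02. Against HF, 24 were higher in HFE rats, where 4.34% of all genes tested were.

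**Figure D4:**
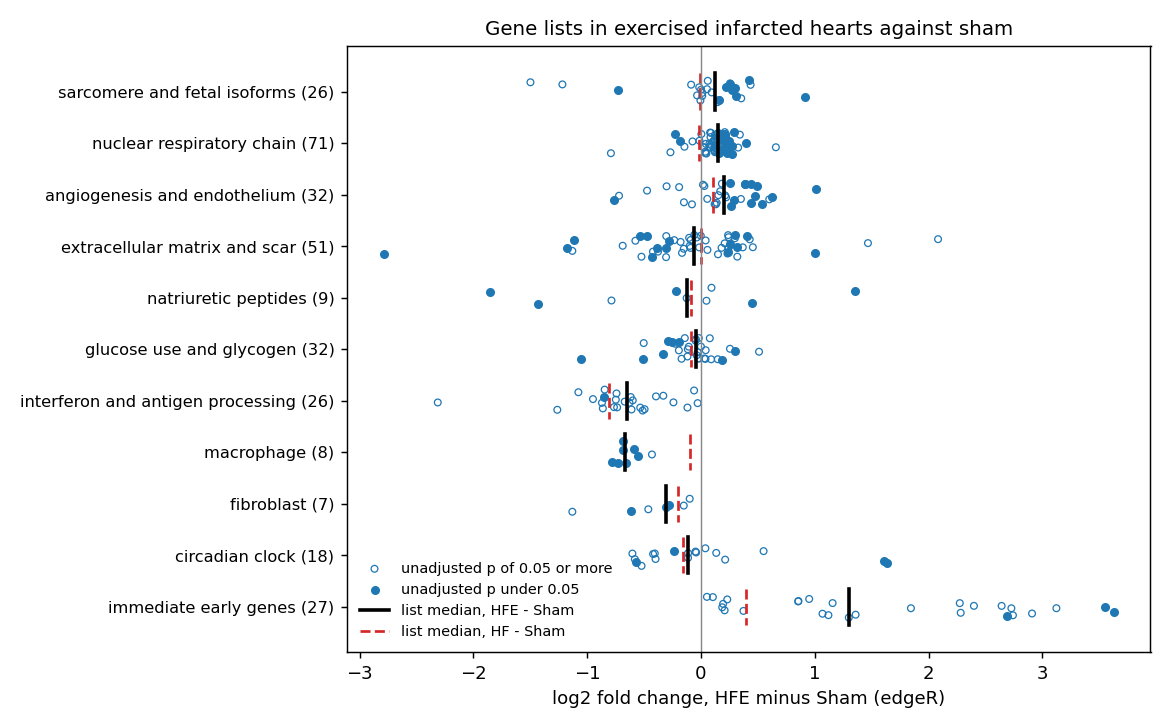
The edgeR log2 fold change (HFE minus Sham) of each tested gene in 11 lists, with the number tested in brackets; filled points have an unadjusted p under 0.05, the black bar is the list median and the dashed red bar the median for HF minus Sham. Macrophage genes lie near -0.67 in HFE and -0.09 in HF rats, whereas the interferon list is low in both.

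Fuel genes were mixed, beside 6.04% higher and 5.15% lower at an unadjusted p under 0.05 among all genes tested. In the fatty acid list, 5 of 33 were higher and 2 lower at an unadjusted p under 0.05 (median 0.03), led by Etfb, an electron carrier of fat oxidation, with a log2 fold change of 0.29 (SE 0.08), and Fabp3, the heart's fatty acid carrier, at 1633, 1570 and 1670 CPM in Sham and 1886, 1841 and 2327 in HFE rats. HFE rat 3 had the highest value for 17 of the 33 genes. Without it 2 were higher and the median was -0.04, and over the other rats left out the higher genes numbered 2 (without Sham rat 1) to 8 (without Sham rat 3). In the glucose and glycogen list, 2 of 32 were higher and 6 lower (median -0.04). The glucose transporter Slc2a1 was at 26.0, 22.7 and 19.8 CPM in Sham and 13.7, 17.3 and 17.0 in HFE rats (log2 fold change -0.51, SE 0.14, edgeR adjusted p = 0.298), while the muscle glycolysis enzyme Pgam2 was higher by 0.30 (SE 0.08). HF rats, at 14.8, 13.5 and 15.9 CPM, were also below every Sham rat for Slc2a1. Pfkfb3, a glycolysis regulator chosen after its values were seen, had a log2 fold change of -1.05 (SE 0.31). In the citrate cycle and biogenesis list, 1 of 23 passed, the lower citrate synthase Cs (log2 fold change -0.20, SE 0.07), and in the list of BAIBA and branched-chain amino acid metabolism 1 of 21, the lower Aldh6a1. These were 4.35% and 4.76%, where 5.15% of all genes tested were lower.

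The study blotted proteins of mitochondrial and survival pathways. In rats, those of AMPK, fat oxidation and mitochondria were blotted in Sham, HF and BAIBA groups, and apoptosis proteins also in exercised rats. The values here are RNA, not protein or its phosphorylation. In HFE rats most of these genes differed little from Sham, though Prkaa2 had a wide SE and Dnm1l and Bax did not overlap. Ppargc1a, the coactivator of mitochondrial biogenesis, had a log2 fold change of -0.16 (SE 0.20), the AMPK catalytic subunits Prkaa1 and Prkaa2 of -0.02 (SE 0.10) and -0.43 (SE 0.77), and the fat oxidation genes Cpt1b, Acadl and Acacb of 0.03 (SE 0.09), 0.10 (SE 0.07) and 0.01 (SE 0.16). Prkaa2 varied more within groups, from 9.72 to 57.1 CPM among Sham rats. Sucla2, of the citrate cycle, had -0.04 (SE 0.07). Dnm1l, which drives mitochondrial fission, was at 78.1, 71.1 and 82.5 CPM in Sham and 58.9, 65.4 and 65.2 in HFE rats, with no overlap (log2 fold change -0.29, SE 0.09, edgeR adjusted p = 0.331), and the fusion gene Opa1 had -0.31 (SE 0.14) with overlap. In its list of mitochondrial dynamics genes, 0 of 17 were higher and 2 lower. Of the AMPK axis, 1 of 19 passed an unadjusted p of 0.05: Prkag2, a regulatory subunit, at 34.0, 31.8 and 29.8 CPM in Sham and 41.5, 38.3 and 43.8 in HFE rats. Among apoptosis genes, Bax and Bcl2 had log2 fold changes of 0.19 (SE 0.13) and 0.04 (SE 0.17), and 1 of 26 was higher (Fas, a death receptor, 0.77, SE 0.23) and 1 lower. Each was 3.85% of the list, against 6.04% higher and 5.15% lower of all genes tested. The lower one was Casp12, a caspase of the endoplasmic reticulum, at 8.94, 9.53 and 10.05 CPM in Sham and 5.33, 5.81 and 6.14 in HFE rats (log2 fold change -0.72, SE 0.14, edgeR adjusted p = 0.170).

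Immediate early genes, which switch on soon after a stimulus, were high in HFE rat 3. All 27 had a positive log2 fold change (median 1.30), but 26 of the 27 had their highest value of the 6 rats in that rat. At an unadjusted p under 0.05, 3 were higher, or 11.1% against 6.04% of all genes tested. Nr4a1, an orphan nuclear receptor, was at 9.23, 9.01 and 6.37 CPM in Sham and 15.5, 21.9 and 252 in HFE rats, and Egr3 at 0.635, 0.519 and 0.394 against 1.13, 2.01 and 16.3. The list mean of HFE rats 1, 2 and 3 lay 0.15, 0.42 and 2.57 log2 units above the Sham mean. Without HFE rat 3 the median was 0.10, with 19 positive and 8 negative values and 5 genes at an unadjusted p under 0.05. In HFE rat 3 the red cell gene Slc4a1 was also high, at 22.5 CPM against 3.83 to 6.23 in the other 5 rats, and the clock gene Per1, at 249 against 17.2 to 85.8. Of the 5 erythroid markers tested, only 1, Slc4a1, had its highest value of the 6 rats in HFE rat 3.

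Many such genes are switched on through a cyclic AMP response element, whose palindrome is TGACGTCA and whose core is CGTCA, or TGACG on the other strand. RefSeq promoters (GRCr8, 250 bases before to 50 after the start) were found for 19 of the 27 genes, and 13 of them (68.4%) held a core match on either strand, as did 21.2% of 33469 rat promoters; 4 (21.1%) held the palindrome, as did 1.83% of all, and each palindrome holds both cores. Nr4a1 (chr7:134259888-134260187, plus strand) has 4 core matches, and 0.236% of all promoters hold 4 or more, and Dusp1, a phosphatase that turns off MAP kinases (chr10:17184603-17184902, plus strand), has 3, of which 2 form a palindrome from base 127. Rcan1 (chr11:45118187-45118486, minus strand), an inhibitor of calcineurin outside this list, has 1 palindrome, from base 44. They are shown because they hold the element and their genes behave differently across the HFE rats, with core matches in capitals. A match is a stretch of letters and was not tested as a site.
Nr4a1: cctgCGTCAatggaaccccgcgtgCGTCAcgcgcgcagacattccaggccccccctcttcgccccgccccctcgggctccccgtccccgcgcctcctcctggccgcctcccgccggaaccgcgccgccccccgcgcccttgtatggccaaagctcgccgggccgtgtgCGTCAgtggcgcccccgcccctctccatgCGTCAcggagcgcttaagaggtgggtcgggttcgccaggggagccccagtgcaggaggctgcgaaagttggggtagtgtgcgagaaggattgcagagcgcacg
Dusp1: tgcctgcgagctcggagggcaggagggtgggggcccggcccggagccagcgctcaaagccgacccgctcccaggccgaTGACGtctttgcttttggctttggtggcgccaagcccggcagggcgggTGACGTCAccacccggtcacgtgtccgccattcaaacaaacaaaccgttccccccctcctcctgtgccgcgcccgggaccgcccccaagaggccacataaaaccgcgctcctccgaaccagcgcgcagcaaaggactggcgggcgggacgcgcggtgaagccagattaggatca
Rcan1: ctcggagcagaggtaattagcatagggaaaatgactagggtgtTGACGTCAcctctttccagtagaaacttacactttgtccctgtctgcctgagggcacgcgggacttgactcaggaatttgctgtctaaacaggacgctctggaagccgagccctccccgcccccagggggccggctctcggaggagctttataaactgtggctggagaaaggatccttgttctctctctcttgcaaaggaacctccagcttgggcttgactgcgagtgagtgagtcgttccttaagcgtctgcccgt
Dusp1 was at 65.7, 73.8 and 69.4 CPM in Sham and 61.6, 82.0 and 370 in HFE rats, so it was high in HFE rat 3 alone. Rcan1, by contrast, was high in all HFE rats, at 131, 110 and 197 CPM in Sham and 348, 267 and 343 in HFE (log2 fold change 1.13, SE 0.24, edgeR adjusted p = 0.263, DESeq2 adjusted p = 2.00e-05), and HF rats had 156, 361 and 437.

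**Figure D5:**
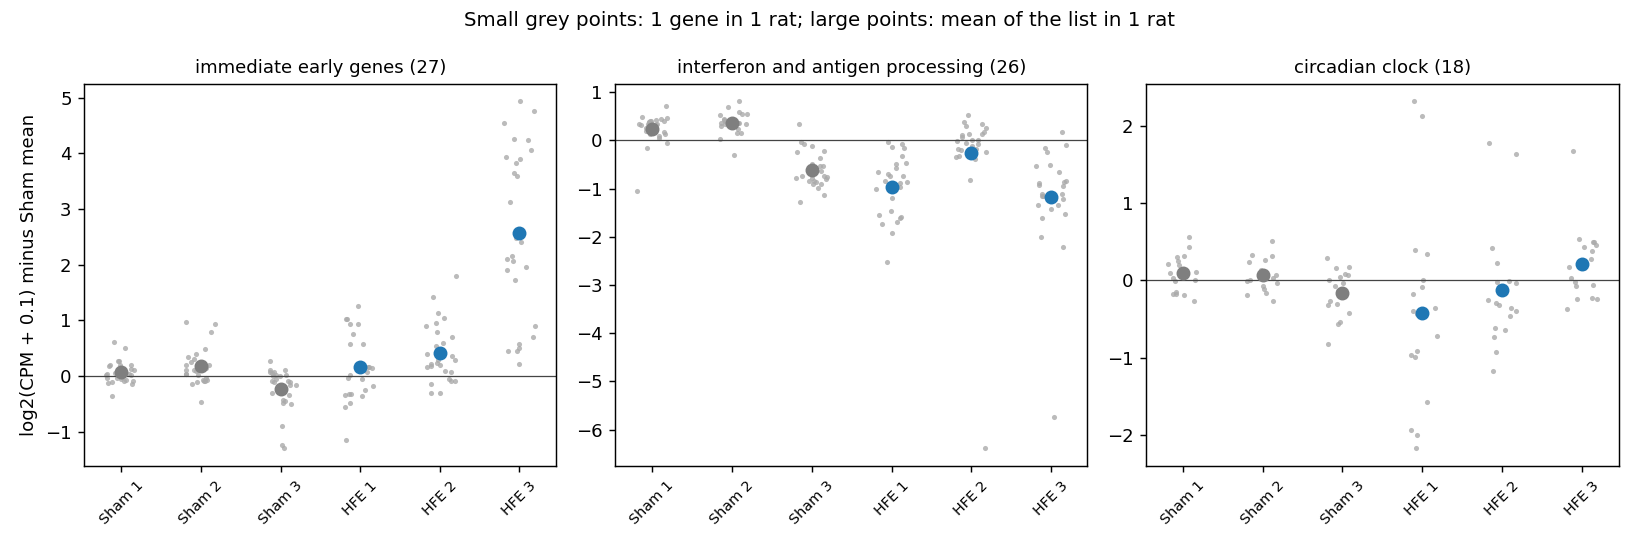
For 3 lists, the log2(CPM + 0.1) of each tested gene minus its mean over Sham rats (small points) and the list mean in each rat (large points). HFE rat 3 stands at 2.57 for immediate early genes, while in the interferon list Sham rat 3 lies at -0.61, among the HFE rats.

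Clock genes differed between rats as well. Npas2, a partner of the clock activator BMAL1, was at 3.40, 3.95 and 2.76 CPM in Sham and 14.98, 11.7 and 4.62 in HFE rats (log2 fold change 1.63, SE 0.43, edgeR adjusted p = 0.298), and Arntl, which encodes BMAL1 and was chosen after its values were seen, at 4.67, 3.18 and 2.76 against 17.7, 10.9 and 3.86. HFE rats 1 and 2 were the high ones for both. Bhlhe41, a clock repressor, had a log2 fold change of -0.57 (SE 0.15). In all, 2 of 18 were higher and 2 lower at an unadjusted p under 0.05. Each was 11.1% of the list, against 6.04% higher and 5.15% lower of all genes tested. Without HFE rat 3 the counts were 3 and 8, and Npas2 then passed in edgeR (adjusted p = 0.0385). The hour at which each heart was taken is not given in the sources used here.

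The remaining lists held few members past an unadjusted p of 0.05. Such small counts moved when 1 rat was left out: without HFE rat 3 there were 7 lower ion channel genes and 7 lower growth genes, without HFE rat 1 there were 0 lower ion channel genes and 2 lower glucose genes, and without Sham rat 3 there were 6 lower inflammation genes. In the growth and exercise signalling list, 2 of 34 were higher, Rcan1 and Gata4, and 4 lower, among them Hdac4, a repressor of growth genes, at 7.73, 7.72 and 6.96 CPM in Sham and 3.93, 4.36 and 5.32 in HFE rats (log2 fold change -0.71, SE 0.17, edgeR adjusted p = 0.266), and the growth factor Igf1 (-0.43, SE 0.13). In the heat shock and reticulum stress list, 3 of 29 were higher and 1 lower: the small heat shock protein Hspb6 had a log2 fold change of 0.41 (SE 0.10) and the chaperone Hspa5 0.35 (SE 0.09), and Hspa5 was also above HF rats by 0.53 (SE 0.11). Antioxidant genes gave 2 of 30 higher and 3 lower, Hmox1 and the glutathione transferase Gstt3 (-0.87, SE 0.25) among the latter. Cell cycle genes gave 4 of 33 higher and 0 lower, led by Cenpf (0.83, SE 0.23) and Tpx2 (0.62, SE 0.24), both of mitosis and both at most 5.95 CPM in the 6 rats. The cell cycle count was 1 in DESeq2 and with library-size scaling, 0 with all 12 rats fitted together and in limma, and 1 (without HFE rat 2 or 3) to 3 with a rat left out. HF rat 1 had 12.2 CPM of Cenpf and 35.9 of the T cell gene Cd3e. The adrenergic, renin-angiotensin and endothelin list gave 2 of 28 higher, with Rgs2 at 0.65 (SE 0.19), and 3 lower, with the phosphodiesterase Pde3a at -0.44 (SE 0.13). Of the other cell types, erythroid markers gave 1 of 5 higher (Hbb, 0.66, SE 0.21), lymphatic endothelial markers 2 of 5 higher (Ccl21 and Flt4), mesothelial markers 1 of 2 lower (Msln), and adipocyte, Schwann cell, atrial and skeletal muscle markers 0 in either direction. The other mesothelial marker, Wt1, went the other way, with a log2 fold change of 0.24 and every HFE rat above every Sham rat. The lymphatic endothelial list had 4 positive and 1 negative log2 fold changes. Its median was 0.099, and 0.012 to 0.29 with a rat left out. The lymphatic marker Lyve1 had 398, 342 and 341 unscaled reads in Sham and 336, 212 and 294 in HFE rats. Over all pathway lists, 78 of 669 tested genes were higher and 50 lower, or 11.7% and 7.47% against 6.04% and 5.15% of all genes tested.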

How the data were processed

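RNA of left ventricle from 12 rats was sequenced from oligo-dT libraries as read pairs. The authors aligned reads with HISAT2, assembled with StringTie and counted with featureCounts (Subread), and deposited raw counts per gene and FPKM; versions and the strand setting are not given in the sources used here. The build listed in the submitters' notes is a mouse one although the identifiers are of rat, so no coordinates were taken from it. The deposited columns of gene annotation gave symbols for 32623 of 34700 genes, and genes without one took 1.40 to 1.81% of counts.

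Deposited counts were tested with edgeR 4.0.16 (quasi-likelihood test, filterByExpr, TMM; R 4.3.3), with Benjamini-Hochberg adjustment over all genes tested; CPM here use TMM factors over 12 rats. DESeq2 1.42.0 and limma 3.58.1 on log2(FPKM + 1) or log2(FPKM + 0.1) of the deposited FPKM were alternatives. A gene was called when it had over a 2-fold change and its adjusted p was under 0.05. Shares were compared by exact permutation over 20 assignments of 6 rats. Scripts were tested on simulated data. Same-numbered rats did not deviate together (correlations of -0.03, -0.05 and 0.02), and nothing in the labels pairs them. Named genes were called genes, else the 10 of each direction with over a 2-fold change, no overlap and the lowest p; the 2 members of each list with the lowest p; cell type markers; and 15 genes of the study's assays; some of these genes are not reported here. Members and lists were chosen with earlier results of these data known. Nothing in the labels says how the rats were assigned to libraries, and the number of rats limits the precision. Sequences are from RefSeq (GRCr8).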

Additional observations from a re-analysis of the deposited data

Results flagged for a closer look

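For 2 named genes every HFE rat lay above, and every HF rat below, all Sham rats. The potassium channel gene Kcnj12 was at 11.08, 11.02 and 11.23 CPM in Sham, 12.8, 14.1 and 14.6 in HFE and 10.4, 8.40 and 10.1 in HF rats. The log2 fold change of HFE against HF was 0.52 (SE 0.14, edgeR unadjusted p = 0.00604, adjusted p = 0.627). The apoptosis gene Bax was at 9.29, 9.47 and 9.26 CPM in Sham, 11.9, 10.2 and 9.81 in HFE and 8.66, 6.75 and 8.74 in HF rats, with a log2 fold change of HFE against HF of 0.40 (SE 0.16, edgeR unadjusted p = 0.0428, adjusted p = 0.648). Neither difference passed the adjustment over all genes, and the opposite directions against Sham were not themselves tested.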

How the results depend on the processing

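The count of called genes depended on the tool and the filter. Against 0 higher and 0 lower genes, DESeq2 gave 31 and 37, edgeR with all genes of at least 1 count 11 and 14, an unadjusted p 119 and 135, and, chosen after seeing the data, DESeq2 with no fold limit 87 and 80. Among list genes, counted at an adjusted p under 0.05 with no fold limit, against 0 and 0 DESeq2 gave 10 higher and 8 lower, and edgeR without the filter 3 and 2. For HF against Sham DESeq2 gave 24 genes and an unadjusted p 191, and for HFE against HF 20 and 158, with 2 without the filter. Leaving out 1 rat gave 0 to 3 higher genes (1 without HFE rat 2, 3 without HFE rat 3), 0 to 1 lower (1 without HFE rat 3), 0 to 2 higher and 0 lower list genes (2 without HFE rat 3), and 0 to 4 for HF against Sham (2 without Sham rat 3, 4, 1 and 1 without HF rats 1, 2 and 3). RLE and library-size scaling, a minimum of 10 counts in every library, all 12 rats together, limma and dropping genes without an Ensembl identifier gave 0. The list counts under each setting were added after seeing the data. The causes were not tested.

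A replicate block gave 1 higher gene, LOC102556337 (adjusted p = 0.0404), and 0 lower; the numbers do not pair the rats, and not every rat correlated best with its own number.

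Named genes near no change turned sign, given here as log2 fold changes. Library-size scaling gave Bcl2 -0.015, Acacb -0.057 and Cpt1b -0.030. Limma with pseudocounts of 1 and 0.1 gave Pdgfrb -0.0049 and -0.0059, Bcl2 -0.0097 and -0.012, Acacb -0.066 and -0.067, and Cpt1b -0.030 and -0.030. Acacb was at -0.0028 with at least 10 counts, -0.0014 with all 12 rats and -0.010 with the block. Over the rats left out in turn the ranges were -0.073 to 0.41 for Myh11, -0.012 to 0.18 for Pdgfrb, -0.10 to 0.38 for Cpa3, -0.044 to 0.11 for Bcl2, -0.089 to 0.047 for Prkaa1, -0.94 to 0.041 for Prkaa2, -0.17 to 0.13 for Acacb, -0.044 to 0.087 for Cpt1b and -0.36 to 0.017 for Ppargc1a.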
